A study of Homo sapiens with 90 samples.

Results

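A375 melanoma cells on the transcription kinase inhibitor THZ1 were compared with and without the BRAF inhibitor vemurafenib, to see what blocking BRAF still did to the transcriptome. The comparison uses 6 of the 90 RNA sequencing libraries of a study of 6 cancer cell lines. The libraries were placed in their groups by their titles and drug labels, and the comparison was chosen with earlier results of these data known. One group of 3 libraries came from A375 cells given 1 uM vemurafenib and 50 nM THZ1 together for 48 h, and the group it is set against came from cells given 50 nM THZ1 alone for 48 h. Both groups therefore carry THZ1, and by their drug labels only vemurafenib differs between them. For the same drug step without THZ1, 3 libraries of cells on 1 uM vemurafenib for 48 h were set against 3 libraries of cells on 0.1% DMSO for 48 h. A375 is an established human melanoma line whose growth depends on a mutant BRAF kinase, so the data describe 1 cell line in culture.

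BRAF passes the growth signal from RAS to MEK and ERK, and ERK enters the nucleus and switches on genes such as the ETS factors ETV4 and ETV5, the G1 cyclin gene CCND1, and the Sprouty and DUSP genes whose products dampen the pathway again. Cyclin D and its kinases release the E2F factors, which open the genes of DNA replication and, later in the cycle, those of mitosis. Vemurafenib blocks the mutant BRAF kinase at the top of this chain. THZ1 binds CDK7 covalently, and also acts on CDK12 and CDK13. These kinases phosphorylate the tail of RNA polymerase II, and CDK7 in addition activates the cell cycle kinases.

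The level of a gene is given as CPM, expected counts scaled to a common library size, which compares libraries for 1 gene and not different genes, because length is not taken out. The 6 libraries held 5.64 to 12.2 M expected counts. All 3 libraries of vemurafenib plus THZ1 were deep, at 11.54, 10.29 and 11.93 M, against 5.64, 5.89 and 12.2 M for THZ1. Depth therefore moves in part with the groups, and values with a term for depth, or from the deep libraries alone, are given with the first count. Each of the 15 A375 libraries was closest to a library of its own group. In 3 of them the immediate-early genes stood apart from the rest of their group. Summed over 22 such genes, replicate 2 of vemurafenib plus THZ1 had 3579 CPM, against 2867 and 2689 CPM in the other replicates of that group. Replicate 1 of vemurafenib alone had 9381 CPM, against 4911 and 5007 CPM in the others. Replicate 2 of vemurafenib for 7 days, a group that enters the joint fit and no comparison, had 9358 CPM, against 5639 and 4600 CPM in the others. The sum over 25 output and feedback genes of the MAPK pathway was also highest in these libraries. It was 4281 CPM in replicate 1 of vemurafenib, against 2157 and 2309 CPM in the others. For 7 days it was 4628 CPM, against 2696 and 2326 CPM. In vemurafenib plus THZ1 it was 3576 CPM, against 3076 and 2939 CPM. One of the vemurafenib libraries, replicate 4, carries lung as its tissue label, and its profile was nearest to its own group. Without it, vemurafenib alone raised 5065 genes and lowered 4967 against DMSO. Whether the libraries of a group came from separate cultures is not stated in the labels, so the p-values measure the spread between these libraries, which may be technical. Against the melanoma label, the melanocyte transcription factor genes SOX10, MITF and PAX3 were all expressed, while the pigment enzyme gene TYR had 0 counts in both groups with THZ1, 1 count in vemurafenib and 0 in DMSO. Of 13 blood cell markers, 5 had 0 counts in vemurafenib plus THZ1 and 4 in THZ1, among them MS4A1 and HBB. PTPRC had 9 counts in vemurafenib plus THZ1 and 2 in THZ1, and HBA1 had 46 and 10. CD14, CD68 and LYZ were expressed and held nearly all of the summed level of the 13 markers. That sum was 50.6 to 56.2 CPM in vemurafenib plus THZ1 and 80.3 to 84.3 CPM in THZ1.

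Vemurafenib on top of THZ1 lowered the MAPK output genes, DNA replication genes and mitosis genes. It raised p53 and FOXO targets, interferon response genes, part of the neural crest program and lysosome genes. Melanocyte genes moved both ways, with MITF and GPNMB among the higher. Of 16106 genes tested, 3336 were higher, 20.7%, and 3285 were lower, 20.4%, in vemurafenib plus THZ1 than in THZ1. A gene counts as changed, here and below, at a Benjamini-Hochberg adjusted p under 0.05 in edgeR's quasi-likelihood test. Counts of listed genes below are to be read beside the 20.7% and 20.4%, and those near these shares are no result about the list. At least 2-fold differences were seen for 699 of the higher and 543 of the lower genes. The counts were 2927 higher and 3103 lower with a term for library depth. They were 2286 and 2534 with the libraries above 9 M counts alone. That fit has 1 THZ1 library, which is assumed to vary like the libraries of the other groups, so it does not check the spread within THZ1. Without the 7-day group the counts were 3283 and 3748. Without THZ1 in the medium, vemurafenib raised 5522 genes, 34.3%, and lowered 5301, 32.9%, against DMSO, with 2253 and 2036 of them past 2-fold.

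**Figure D1:**
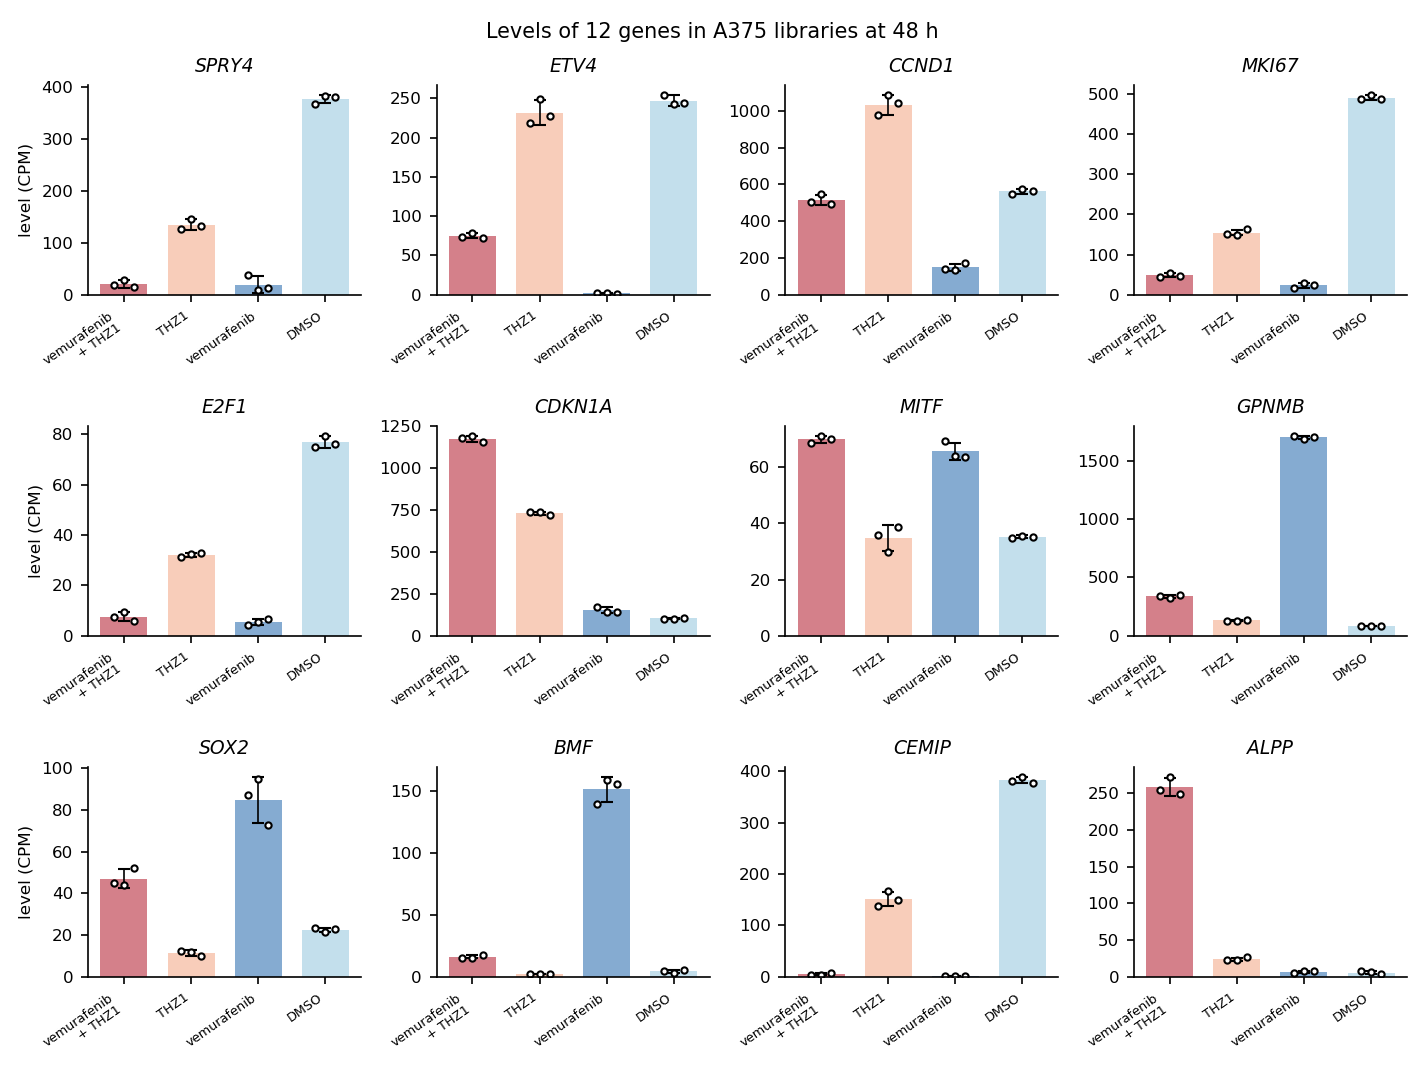
Levels of 12 genes in CPM (vertical axes, linear from 0) in vemurafenib plus THZ1, THZ1, vemurafenib and DMSO. Bars are means, error bars are SDs and points are the 3 libraries of each group. SPRY4, ETV4, CCND1, MKI67, E2F1 and CEMIP were lower, and CDKN1A, MITF, GPNMB, SOX2, BMF and ALPP higher, in vemurafenib plus THZ1 than in THZ1.

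Most listed output and feedback genes of the MAPK pathway fell. Of 25 output and feedback genes, 20 were lower and 1 was higher in vemurafenib plus THZ1 than in THZ1, with a median log2 change of -1.0 against 0.02 over all tested genes. SPRY4, a Sprouty feedback inhibitor of the pathway, had 18.4, 29.1 and 14.9 CPM in vemurafenib plus THZ1 and 127, 146 and 133 CPM in THZ1. Its 3 libraries with vemurafenib all lay far below the 3 without, a 6.59-fold fall (log2 change -2.72 ± 0.35, where ± is the SE of the fit, adjusted p = 4.16e-06). The same drug step without THZ1 left 37.6, 8.51 and 12.1 CPM in vemurafenib against 368, 383 and 382 CPM in DMSO, a log2 change of -4.39.

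ETV4, an ETS factor that ERK signalling switches on, had 74.1, 78.8 and 72.5 CPM in vemurafenib plus THZ1 against 219, 249 and 228 CPM in THZ1, a log2 change of -1.63 ± 0.05 (adjusted p = 6.28e-14). In vemurafenib alone it was almost lost, at 1.6, 2.34 and 1.45 CPM against 255, 243 and 244 CPM in DMSO. The groups with THZ1 are thus separated by a moderate step and those without it by a very large one. The fall was smaller with THZ1 by 5.52 ± 0.13 on the log2 scale (adjusted p = 9.87e-16, test of the difference between the 2 vemurafenib effects). Its relative ETV5 changed by -1.34 with THZ1 and by -3.18 without, ETV1 by -1.03 and -1.64. CCND1, which encodes cyclin D1, had 506, 547 and 496 CPM in vemurafenib plus THZ1 and 976, 1086 and 1041 CPM in THZ1, while vemurafenib had 142, 137 and 171 CPM against 550, 573 and 564 CPM in DMSO. Cyclin D1 transcripts in the cells with both drugs thus stood near the DMSO level, and those with THZ1 alone stood above it.

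DUSP6, the phosphatase that takes the activating phosphates off ERK, had 106, 135 and 95.3 CPM in vemurafenib plus THZ1 and 243, 266 and 265 CPM in THZ1 (log2 change -1.21 ± 0.19, adjusted p = 4.11e-05). It was thus clearly lower with both drugs. In vemurafenib alone the 3 libraries disagreed, with 300, 154 and 151 CPM against 243, 254 and 267 CPM in DMSO, and the high value belongs to the replicate whose immediate-early genes stood apart. The log2 change there was -0.35 and did not pass the test, and it passed without that replicate. VGF, a secreted neuropeptide precursor, had 75.7, 81.5 and 72.3 CPM in vemurafenib plus THZ1 against 303, 390 and 323 CPM in THZ1. The cytokine gene IL11 had 7.8, 8.83 and 8.06 CPM in vemurafenib plus THZ1 and 54, 53.6 and 56.6 CPM in THZ1, a log2 change of -2.74 ± 0.11 (adjusted p = 4.92e-13), the largest fall of the list. Also lower were DUSP4 (-1.13), the AP-1 gene FOSL1 (-1.18), SPRED3 (-1.25), PHLDA1 (-1.18), SPRY2 (-1.07) and SPRY1 (-0.99). MYC had -0.82, which did not pass the test (adjusted p = 0.0654), and passed it in 4 of 16 alternative settings, among them the one without replicate 2 of vemurafenib plus THZ1.

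EGR1, an early-response zinc finger gene that ERK induces, was the one member that was higher. It had 106, 202 and 79.1 CPM in vemurafenib plus THZ1 against 48.3, 49.8 and 52.7 CPM in THZ1, and the middle value of the first group is that of replicate 2. The log2 change was 1.35 ± 0.50 (adjusted p = 0.0371), and it lost its call in 8 of 16 alternative settings, including the one without that replicate. Of 16 RAS, RAF, MEK and ERK genes upstream in the pathway, 4 were higher and 3 lower, with a median of 0.12. These shares are near the 20.7% and 20.4% of all tested genes and are no result about these genes. BRAF itself had a log2 change of 0.02 (adjusted p = 0.896). Among the called members were the ERK kinase gene MAP2K2 (0.25), its relative MAP2K1 (-0.42) and the RAS GTPase-activating gene RASA1 (-0.56). Vemurafenib alone raised 4 and lowered 6 of these 16, against 34.3% and 32.9% of all tested genes.

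Immediate-early and AP-1 genes leaned upward, but the lean rested in part on a single library. Of 22, 7 were higher and 1 was lower, against 20.7% and 20.4% of all tested genes, with a median of 0.32. Without replicate 2 of vemurafenib plus THZ1 the count was 6 higher and 1 lower and the median -0.03, so part of the group's rise rested on that library. The AP-1 subunit gene JUN had 128, 126 and 118 CPM in vemurafenib plus THZ1 and 38.1, 33.3 and 37.7 CPM in THZ1, and its log2 change of 1.76 ± 0.13 (adjusted p = 2.17e-09) kept its call in every setting tried. All 3 libraries with vemurafenib lay above all 3 without. In vemurafenib alone JUN reached 994, 1170.1 and 1164 CPM against 124, 87.8 and 118 CPM in DMSO. FOS changed by 1.40, FOSL2 by 1.01, JUND by 0.68 and the antiproliferative BTG2 by 1.04. MCL1, a short-lived survival gene of the BCL2 family, was the member that fell, with 297, 326 and 290 CPM in vemurafenib plus THZ1 and 515, 552 and 521 CPM in THZ1 (log2 change -0.80 ± 0.22, adjusted p = 0.00687). Vemurafenib alone raised 11 of the 22 and lowered 1 (median 0.84), against 34.3% and 32.9% of all tested genes. Without its replicate 1 it raised 7 and lowered 6 (median 0.31), which is near those shares.

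The cell cycle genes fell together. All 24 mitosis genes tested were lower in vemurafenib plus THZ1 than in THZ1, with log2 changes between -1.84 and -0.63 and a median of -1.31, against 20.4% of all tested genes. MKI67, the gene of the Ki-67 proliferation antigen, had 44.7, 53.5 and 47.8 CPM in vemurafenib plus THZ1 against 152, 150 and 163 CPM in THZ1 (log2 change -1.68 ± 0.10, adjusted p = 1.48e-10). PLK1, a kinase of mitotic entry and spindle assembly, had 31.1, 32.8 and 29.4 CPM in vemurafenib plus THZ1 and 83, 95.8 and 97.8 CPM in THZ1. In both genes the groups did not overlap. The kinase gene AURKB had a log2 change of -1.84 ± 0.19, the ubiquitin-conjugating UBE2C had -1.68, KIF20A -1.57, CCNA2 -1.52 and TOP2A -1.48. In bulk RNA, fewer cycling cells and less of these transcripts per cell cannot be told apart.

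MKI67 and PLK1 were picked among mitosis genes whose promoter windows hold both short elements marked below, so their matches are no result. Their promoters are shown because such elements are known from mitosis genes. They are RefSeq windows on GRCh38.p14 of 300 bases, from 250 before to 50 after the start, printed 5′ to 3′ along the gene, with capitals for the element TTTGAA, called CHR, and for CCAAT boxes (read as ATTGG on the other strand).
MKI67, chr10:128126374-128126673, minus strand: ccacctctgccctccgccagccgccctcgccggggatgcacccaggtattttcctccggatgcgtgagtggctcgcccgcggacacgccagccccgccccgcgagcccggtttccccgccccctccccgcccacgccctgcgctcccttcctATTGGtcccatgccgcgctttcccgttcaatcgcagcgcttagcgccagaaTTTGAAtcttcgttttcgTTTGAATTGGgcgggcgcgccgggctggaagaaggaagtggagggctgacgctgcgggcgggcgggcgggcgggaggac
PLK1, chr16:23678639-23678938, plus strand: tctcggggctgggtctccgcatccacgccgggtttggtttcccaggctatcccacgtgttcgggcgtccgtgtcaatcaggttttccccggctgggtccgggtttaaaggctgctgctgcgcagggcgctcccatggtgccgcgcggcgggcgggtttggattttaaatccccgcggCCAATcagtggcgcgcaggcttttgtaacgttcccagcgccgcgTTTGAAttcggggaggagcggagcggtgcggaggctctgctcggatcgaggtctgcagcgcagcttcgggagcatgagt
The CHR letters begin at -47 and -29 in MKI67, where the second run is followed by and shares letters with a CCAAT box at -24, and at -29 in PLK1. On either strand, TTTGAA was found in 11 of 18 mitosis genes with a window (61.1%), against 15.4% of all 27305 windows, and CCAAT in 15 of 18 (83.3%), against 35.7%. A match describes letters and is not a measured binding site.

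DNA replication genes fell with them, 22 of 23, with a median of -0.92. The replication initiation gene MCM10 had 5.52, 5.15 and 4.62 CPM in vemurafenib plus THZ1 and 21.3, 29.3 and 23.1 CPM in THZ1 (log2 change -2.26 ± 0.13). RRM2, the ribonucleotide reductase subunit that supplies DNA precursors, had 23.1, 29.3 and 23.9 CPM in vemurafenib plus THZ1 and 98.9, 111 and 106 CPM in THZ1 (log2 change -2.05 ± 0.11). Both lay well apart between the groups. CDC45 changed by -1.98, the licensing factor CDT1 by -1.55, and the 6 helicase subunits MCM2 to MCM7 by -1.25 to -0.79. The exception was the sliding clamp gene PCNA, with 169, 168 and 164 CPM in vemurafenib plus THZ1 and 170, 175 and 188 CPM in THZ1, a log2 change of -0.09 that did not pass the test (adjusted p = 0.213). Vemurafenib alone lowered PCNA by a log2 change of -1.77. The E2F site TTTNGCGC was found in 9 of 20 replication gene windows (45.0%), against 1.83% of all windows, and TTTGAA in 1 of the 20 (5.0%).

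Homologous recombination and Fanconi genes, which repair breaks and crosslinks mainly in dividing cells, followed, with 17 of 20 lower and none higher (median -0.97). The helicase gene BLM had -1.85, XRCC2 -1.52, RAD51AP1 -1.44, RAD54L -1.44 and BRCA1 -1.30. The kinase gene ATR had -0.14 and RAD51C -0.00, both not called, and the call of ATM (-0.24) was lost in 9 of 16 alternative settings.

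At the G1 entry point, 13 of 21 tested genes were lower and 4 were higher. E2F1, whose protein drives entry into S phase, had 7.39, 9.47 and 5.95 CPM in vemurafenib plus THZ1 and 31.2, 32.5 and 32.7 CPM in THZ1 (log2 change -2.09 ± 0.12, adjusted p = 1.48e-10). E2F2 had -1.94, E2F8 -1.80, the phosphatase CDC25A -1.78 and CCNE2 -1.48. CDK2, the partner of cyclins E and A, had 34.3, 34.6 and 36.2 CPM in vemurafenib plus THZ1 against 92.7, 85.4 and 96.1 CPM in THZ1. Some inhibitors of the kinases and the pocket protein genes RB1 and RBL2 went the other way. CDKN2C, encoding the inhibitor p18, had 86.2, 92.2 and 88.9 CPM in vemurafenib plus THZ1 and 43.7, 42.8 and 46.6 CPM in THZ1 (log2 change 1.00 ± 0.07). CDKN1B (0.33), RB1 (0.26) and RBL2 (0.40) were higher as well. The 10 histone genes were split. Of these, 7 were higher, led by H2BC4 (0.98), and 2 were lower, among them H2AZ1 (-0.65). Reads of histone copies can be shared between near-identical genes.

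p53 targets rose with vemurafenib added to THZ1. Of 23, 17 were higher and 2 lower, with a median of 0.45, against 20.7% of all tested genes called higher. CDKN1A, encoding the CDK inhibitor p21, had 1175, 1189 and 1152 CPM in vemurafenib plus THZ1 and 733, 733 and 716 CPM in THZ1 (log2 change 0.69 ± 0.07, adjusted p = 3.71e-07). Both groups with THZ1 stood far above those without it, at 172, 142 and 143 CPM in vemurafenib and 102, 102 and 105 CPM in DMSO. The autophagy and cell death gene TP53INP1 had 39.7, 35.8 and 43.9 CPM in vemurafenib plus THZ1 and 15.9, 13 and 13.9 CPM in THZ1. TP53I3 changed by 0.96, the mitochondrial reductase FDXR by 0.94, the pro-apoptotic BBC3 by 0.86 and MDM2, the ligase that degrades p53, by 0.29. AEN (-0.55) fell, and the small fall of GDF15 (-0.19) lost its call in 9 of 16 alternative settings.

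FOXO targets, which FOXO factors switch on when growth factor signalling through AKT is low, were higher in 9 of 13 and lower in 2 (median 0.60). SESN3, a sestrin that restrains mTORC1, had 51.1, 39.7 and 45.6 CPM in vemurafenib plus THZ1 and 9.32, 7.99 and 8.45 CPM in THZ1 (log2 change 2.41 ± 0.11). PIK3IP1, an inhibitor of PI3K, changed by 2.08, KLF9 by 0.97 and BCL6 by 0.74. Vemurafenib alone also raised 9 and lowered 2 of the 13 (median 0.79). Of 13 BCL2 family genes, 4 were higher and 2 lower, against 20.7% and 20.4% of all tested genes, so the counts are no result about the family. MCL1 and BCL2A1, which are counted in other lists here, are not among the 13, and both were lower. BMF, a BH3-only gene whose product promotes apoptosis, had 15.5, 15.4 and 17.8 CPM in vemurafenib plus THZ1 and 2.03, 2.17 and 2.01 CPM in THZ1, and 140, 159 and 156 CPM in vemurafenib against 4.55, 2.88 and 5.53 CPM in DMSO. The log2 change was 2.97 ± 0.17 with THZ1 (adjusted p = 1.18e-10) and 5.05 ± 0.11 without. The survival gene BCL2L1, encoding BCL-XL, had 246, 269 and 251 CPM in vemurafenib plus THZ1 and 193, 176 and 183 CPM in THZ1, a log2 change of 0.47, where vemurafenib alone gave -0.33. Its family member BCL2L2 changed by -0.38.

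The melanocyte program moved in part. MITF, the master factor of the lineage, had 68.5, 71.2 and 70.2 CPM in vemurafenib plus THZ1 and 35.9, 29.8 and 38.6 CPM in THZ1, a log2 change of 0.99 ± 0.09 (adjusted p = 6.7e-08). Vemurafenib had 69.3, 64.1 and 63.6 CPM against 34.7, 35.7 and 35.3 CPM in DMSO. MITF rose in both settings, and the difference of 0.09 ± 0.13 between both steps did not pass the test (adjusted p = 0.595). Of 16 melanocyte genes tested, 6 were higher and 4 lower in vemurafenib plus THZ1, against 20.7% and 20.4% of all tested genes. Vemurafenib alone raised 8 and lowered 1, against 34.3% and 32.9% of all tested genes. The median of -0.01 sat at 0 and ran up to 0.26 in the alternative settings, so the list as a whole had no direction. Its summed level was 1048 to 1122 CPM in vemurafenib plus THZ1 and 858 to 963 CPM in THZ1, against 3572 to 3699 CPM in vemurafenib and 1183 to 1231 CPM in DMSO.

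GPNMB, a melanosome and lysosome membrane glycoprotein gene, had 343, 320 and 349 CPM in vemurafenib plus THZ1 and 129, 125 and 139 CPM in THZ1 (log2 change 1.36 ± 0.04), against 1717, 1691 and 1711 CPM in vemurafenib and 80, 79.2 and 81.8 CPM in DMSO. It rose in both settings, and the difference of -3.05 ± 0.06 between both steps on the log2 scale, a smaller rise with THZ1, passed the test (adjusted p = 2e-16). The pigment enzyme gene DCT had 4.38, 3.4 and 4.23 CPM in vemurafenib plus THZ1 and 0, 0.167 and 0.161 CPM in THZ1, where its 3 libraries held 3 counts in all, so no fold is given. In vemurafenib it had 240, 201 and 232 CPM. The coactivator gene PPARGC1A changed by 1.80 and CITED1 by 1.29. SOX10 had 612, 581 and 622 CPM in vemurafenib plus THZ1 and 613, 731 and 665 CPM in THZ1. These ranges overlap, and its call (-0.15, adjusted p = 0.0269) was lost in 9 of 16 alternative settings. RAB38 (-0.92) and the survival gene BCL2A1 (-1.84, call lost without THZ1 replicate 4) were lower.

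The GPNMB promoter is shown because MITF and its relatives are known to act through the M-box, TCATGTG. It is the RefSeq window on GRCh38.p14 of 300 bases, with capitals for the M-box letters, here read as CACATGA on the other strand.
GPNMB, chr7:23246525-23246824, plus strand: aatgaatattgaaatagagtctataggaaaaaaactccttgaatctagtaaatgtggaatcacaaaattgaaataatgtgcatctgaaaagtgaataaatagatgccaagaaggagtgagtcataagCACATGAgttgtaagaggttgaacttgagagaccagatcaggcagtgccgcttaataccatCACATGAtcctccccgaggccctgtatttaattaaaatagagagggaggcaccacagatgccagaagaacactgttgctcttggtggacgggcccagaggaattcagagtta
The matches begin at -123 and -62. The M-box was found in 2 of 11 melanocyte gene windows (18.2%), against 2.99% of all windows. GPNMB is among these and was picked for its match. The share was similar in the MAPK output list, 2 of 15 (13.3%). It was 1 of 16 (6.25%) for lysosomal, 1 of 18 (5.56%) for mitosis and 0 of 20 for DNA replication genes.

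Genes of the neural crest and of dedifferentiated melanoma were more often higher, 12 of 20, with 5 lower and a median of 0.52. SOX2, a stem cell factor, had 45.1, 43.9 and 52.3 CPM in vemurafenib plus THZ1 and 12.2, 12 and 9.74 CPM in THZ1 (log2 change 2.10 ± 0.12, adjusted p = 1.46e-10). FOXD3, a neural crest factor, had 99.6, 77.1 and 98.8 CPM in vemurafenib plus THZ1 and 23.5, 22.3 and 23.2 CPM in THZ1. Both groups were far apart in each gene. NGFR, the nerve growth factor receptor gene that marks the neural crest state, had 170, 157 and 156 CPM in vemurafenib plus THZ1 and 83.4, 82.3 and 92 CPM in THZ1, against 1031, 1139 and 1159.8 CPM in vemurafenib and 61.7, 65.5 and 69.9 CPM in DMSO. With THZ1 in place its rise was thus 0.90 instead of 4.07 on the log2 scale. The ligand gene NRG1 changed by 1.41 and WNT5A by 1.14, both of which vemurafenib alone lowered (-1.24 and -0.92). AXL, a receptor kinase of the dedifferentiated state, had 218, 221 and 213 CPM in vemurafenib plus THZ1 and 280, 286 and 297 CPM in THZ1, and ZEB1 (-0.95), NES (-1.10) and TNC (-0.72) were lower too, while ZEB2 was higher (1.57).

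Among 31 receptor tyrosine kinase and ligand genes, 8 were higher and 9 lower, not far from the 20.7% and 20.4% of all tested genes. ERBB2 (0.65), FGF2 (0.58) and the collagen receptor DDR1 (0.77) were higher. EGFR (-0.55), MET (-0.70), EPHB2 (-0.98), ROR1 (-0.96) and FGFR4 (-0.65) were lower. AREG, an EGFR ligand gene that vemurafenib alone lowered by a log2 change of -3.93, had 0.03 with THZ1, which did not pass the test. FGFR2, which vemurafenib alone raised by 4.05, had 0.10, which did not pass either.

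Mesenchymal, matrix and contractile genes were higher in 10 and lower in 5 of 21, against 20.7% and 20.4% of all tested genes. THBS1, encoding the matrix protein thrombospondin 1, had 2580.1, 2799 and 2558 CPM in vemurafenib plus THZ1 and 1100.2, 1033 and 1088 CPM in THZ1, while the intermediate filament gene VIM had 840, 798 and 818 CPM in vemurafenib plus THZ1 and 1612, 1894 and 1779.5 CPM in THZ1. THBS1 was thus higher and VIM lower with vemurafenib in every library. The contractile genes MYL9 (1.79), TPM1 (1.04) and TAGLN (0.90) were higher, and COL6A3 (-1.66) and FN1 (-0.44) lower. Markers of fibroblasts and endothelium moved beside these genes. Of 9 found, 5 were tested and 4 were higher, and their summed level was 33.3 to 33.9 CPM in vemurafenib plus THZ1 against 6.16 to 7.79 CPM in THZ1. Most of that sum was LUM, the proteoglycan lumican, with 25.6, 25.5 and 25.6 CPM in vemurafenib plus THZ1 and 3.56, 3.33 and 4.1 CPM in THZ1, and none of the 9 was at 0 counts in vemurafenib plus THZ1, against 1 in THZ1. Their part in the result was not tested. Epithelial markers, 7 of 17 tested, were higher in 2 and lower in 3. Sums over the 17 were 439 to 474 CPM in vemurafenib plus THZ1 and 571 to 589 CPM in THZ1. Of the 3 tested blood cell markers 2 were lower. Sums over all 13 were 50.6 to 56.2 CPM in vemurafenib plus THZ1 and 80.3 to 84.3 CPM in THZ1.

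Matrix proteases and hyaluronan genes were lower in 8 and higher in 5 of 17, against 20.4% and 20.7% of all tested genes. CEMIP, a hyaluronan-degrading protein gene, had 4.22, 4.05 and 6.5 CPM in vemurafenib plus THZ1 and 138, 166 and 150 CPM in THZ1, a 30.4-fold fall (log2 change -4.93 ± 0.12, adjusted p = 1.25e-15) and the largest fall among genes with at least 5 CPM in the higher group and no overlap. Vemurafenib had 1.06, 1.67 and 2.09 CPM against 382, 390 and 377 CPM in DMSO. The collagenase gene MMP1 (-1.99) and the urokinase receptor gene PLAUR (-1.52) fell as well. MMP15, a membrane-bound metalloprotease gene, rose, with 86.5, 75.2 and 88.4 CPM in vemurafenib plus THZ1 and 18.1, 30.1 and 22.9 CPM in THZ1. YAP and TEAD targets had 8 of 18 higher, among them CCN2 (0.93), and 5 lower, among them NT5E (-2.11). In the TGF-beta and BMP list 10 of 18 were higher, led by BMP4 (1.64), TGFB2 (1.63) and the differentiation inhibitor ID2 (1.53), and 4 were lower. Both lists stand beside 20.7% higher and 20.4% lower of all tested genes. INHBA, the activin A subunit gene, had 39.2, 45.3 and 40.9 CPM in vemurafenib plus THZ1 and 314, 307 and 312 CPM in THZ1 (log2 change -2.90 ± 0.07).

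Interferon response genes were higher in 16 of 23 and lower in 2, with a median of 0.55. IFIT2, an antiviral effector gene, had 14.9, 14.5 and 14.2 CPM in vemurafenib plus THZ1 and 3.73, 3.33 and 5.71 CPM in THZ1 (log2 change 1.67 ± 0.18). STAT2, a subunit of the interferon-activated transcription factor, had 94.7, 92.9 and 105 CPM in vemurafenib plus THZ1 and 53.5, 52.6 and 54.1 CPM in THZ1. GBP1 (1.59), IFIT1 (1.21), ISG15 (0.85), MX1 (0.80) and IRF9 (0.71) rose too, and without THZ1 MX1 had -0.24 and IFIT1 -0.50 for vemurafenib against DMSO, neither past the test. The exonuclease gene ISG20 ran against the list, with 27.4, 23.2 and 24.8 CPM in vemurafenib plus THZ1 and 104, 117 and 112 CPM in THZ1 (log2 change -2.14 ± 0.07). Vemurafenib alone raised 9 and lowered 5 of the 23 (median 0.12), against 34.3% and 32.9% of all tested genes.

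Antigen presentation genes were higher in 14 of 21 and lower in 2, but the changes were small, with a median of 0.22 against 1.31 for vemurafenib alone. The peptide transporter gene TAP1 (0.64) and the class I regulator gene NLRC5 (0.54) led the rise, and HLA-E had 0.43 and B2M 0.28. HLA reads can be shared between similar genes. TAP2 (-0.52) and CIITA (-0.52), the class II switch, were lower. Inflammatory cytokine and NF-kB feedback genes had 4 higher and 6 lower of 16, against 20.7% and 20.4% of all tested genes. IL1A (-2.83) and CXCL8 (-2.17, call lost without replicate 3 of vemurafenib plus THZ1) fell, and IL6 (2.38), the monocyte attractant CCL2 (2.37) and the growth factor CSF1 (1.23) rose.

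**Figure D2:**
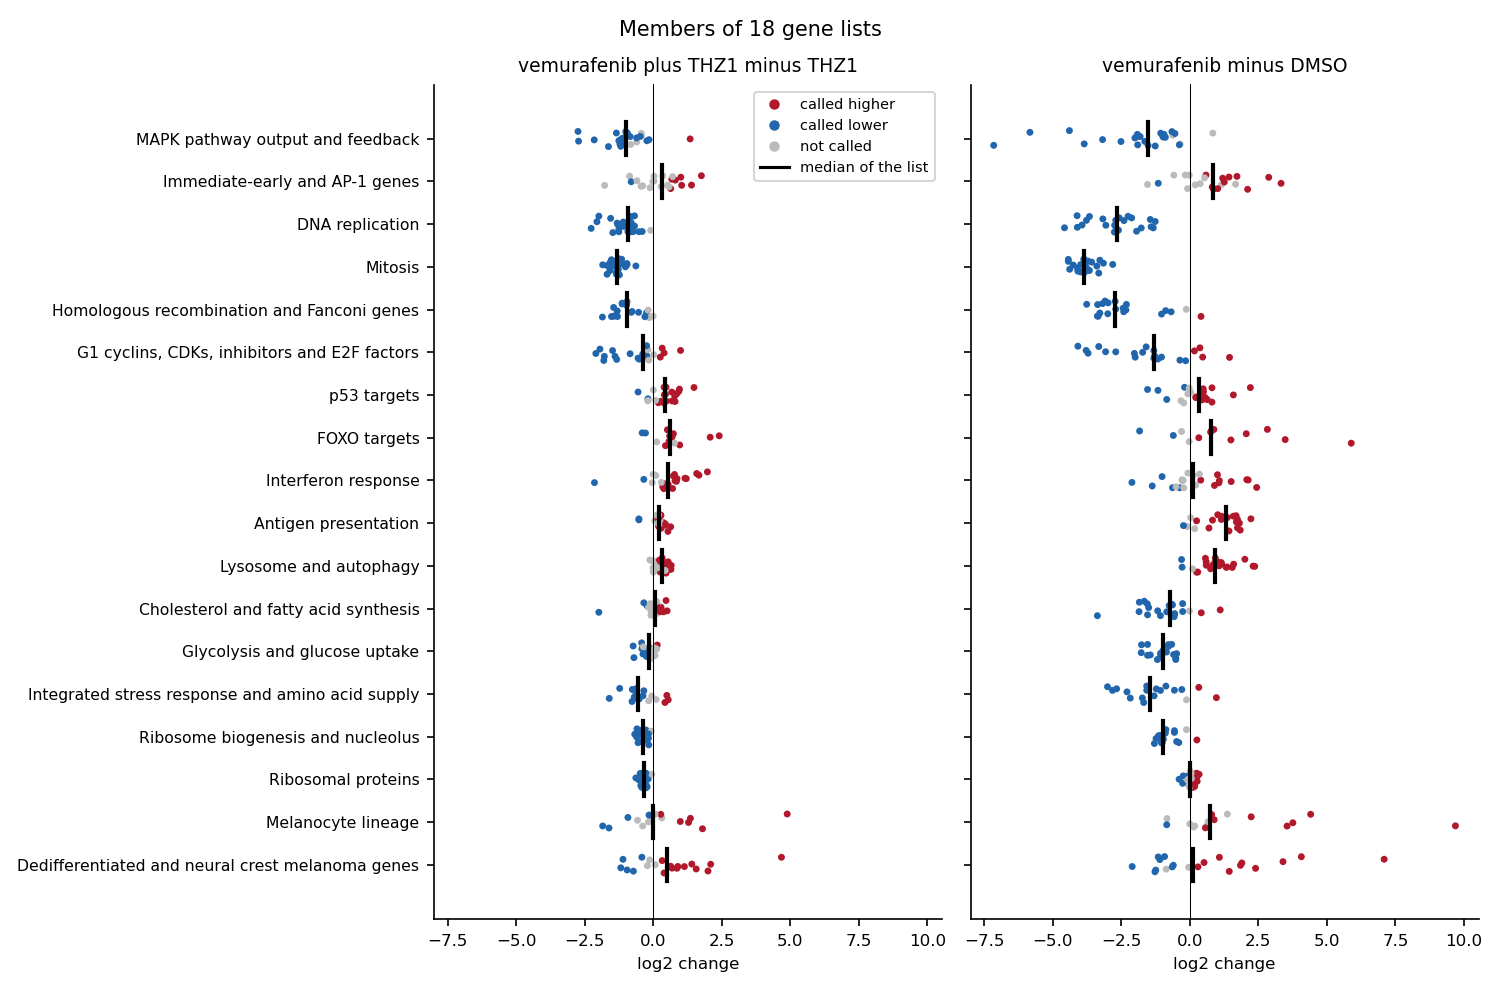
Log2 changes of the members of 18 gene lists (horizontal axis), vemurafenib plus THZ1 against THZ1 on the left and vemurafenib against DMSO on the right. Each point is a gene, red where called higher, blue where called lower and grey otherwise, and the bar is the median. Mitosis genes sat at a median of -1.31 on the left and -3.84 on the right, ribosomal protein genes at -0.34 and 0.02.

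Several metabolic lists had medians closer to 0 than without THZ1. Lysosome and autophagy genes were higher in 14 of 23 and lower in none, with a median of 0.33, against 20 higher and a median of 0.93 for vemurafenib alone. LAMP2 (0.65), GABARAPL1 (0.60) and NEU1 (0.55) were among the higher. The E-box CACGTG was found in 6 of 16 lysosomal gene windows (37.5%), against 7.43% of all windows. Of 22 cholesterol and fatty acid synthesis genes, 7 were higher and 3 lower, against 20.7% and 20.4% of all tested genes. The counts were 4 and 4 without THZ1 replicate 2, and 9 and 2 without THZ1 replicate 3, so they give the list no firm direction. Vemurafenib alone lowered 19 of these genes, against 32.9% of all tested genes. Their summed level was already low with THZ1 alone, at 2985 to 3313 CPM against 5570 to 5740 CPM in DMSO. It was 2802 to 2865 CPM in vemurafenib plus THZ1 and 2766 to 2838 CPM in vemurafenib. HMGCS1 (0.51) and LSS (0.26) were higher and FASN (-0.34) lower.

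All 17 glycolysis genes were lower with vemurafenib alone, with a median of -0.98. With THZ1 present 8 were lower and 1 was higher, and the median was -0.14. HK2 (-0.73), SLC2A3 (-0.70) and LDHA (-0.37) were among the lower. The integrated stress response and amino acid supply list had 12 of 18 lower and 3 higher (median -0.56). ADM2 (-1.60), CBS (-1.22), ASNS (-0.76), PHGDH (-0.69) and ATF4 (-0.51) fell. SLC7A5, the large neutral amino acid transporter gene, was higher, with 2791, 3014 and 2724 CPM in vemurafenib plus THZ1 and 2063, 1932 and 2042 CPM in THZ1, whereas it had 272, 269 and 262 CPM in vemurafenib against 896, 881 and 891 CPM in DMSO. The log2 changes were 0.50 and -1.73, in opposite directions.

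Of 15 endoplasmic reticulum chaperone genes, 3 were higher and 7 lower, against 20.7% and 20.4% of all tested genes. All lay within 1 on the log2 scale, with XBP1 (-0.64) and MANF (-0.44) among the lower. Of 13 cytosolic heat shock genes, 3 were higher and 6 lower, against 20.7% and 20.4% of all tested genes. The higher were HSPA1A (0.93), HSPB1 (0.85) and HSPA1B (0.72), and HSPA8 (-0.56) and HSP90AB1 (-0.46) were among the lower. HSPA1A and HSPA1B are near-identical copies and can share reads. NRF2 targets had 6 of 13 higher and 1 lower. The haem oxygenase gene HMOX1 had 116, 127 and 102 CPM in vemurafenib plus THZ1 and 30.5, 22.7 and 25.5 CPM in THZ1 (log2 change 2.14 ± 0.11), a rise that vemurafenib alone also gave (2.01). Nuclear genes of the respiratory chain had 5 of 22 higher, led by SDHA (0.49), and 2 lower, against 20.7% and 20.4% of all tested genes. Transcripts of the mitochondrial genome were higher in 9 of 13 and lower in none, with a median of 0.30. Of 10 aldehyde dehydrogenase and histone demethylase genes, 2 were higher, among them ALDH7A1 (0.56), and 2 were lower, among them ALDH1A3 (-0.47), near the 20.7% and 20.4% of all tested genes.

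Genes of the ribosome fell. Of 26 ribosomal protein genes, 25 were lower in vemurafenib plus THZ1 than in THZ1, with a median of -0.34. Vemurafenib alone raised 9 and lowered 4 (median 0.02), against 34.3% and 32.9% of all tested genes. The difference between both steps passed the test, with a negative sign, in 22 of the 26. RPL23 had 234, 232 and 243 CPM in vemurafenib plus THZ1 and 350, 369 and 381 CPM in THZ1, against 857, 881 and 861 CPM in vemurafenib and 685, 748 and 746 CPM in DMSO. The THZ1 groups lay below the others, and the one with vemurafenib lay lowest. RPS6 had -0.52, RPS3 -0.47 and RPL7A -0.45. Ribosomal protein genes have many processed copies in the genome with which reads can be shared. Of 19 ribosome biogenesis genes, 18 were lower (median -0.38), led by DKC1 (-0.67), NPM1 (-0.60) and NOP56 (-0.59), and vemurafenib alone lowered 17 with a median of -0.99.

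Of 24 RNA polymerase II and transcription kinase genes, the machinery that THZ1 acts on, 4 were higher and 7 lower, against 20.7% and 20.4% of all tested genes. Their log2 changes had a median of -0.06. CDK7 had a log2 change of -0.07 (adjusted p = 0.564) and CDK13 0.05 (adjusted p = 0.658), neither past the test, and CDK12 had -0.32 ± 0.05 (adjusted p = 6.56e-05). POLR2A, the catalytic polymerase subunit whose tail these kinases phosphorylate, had 1070.3, 1066 and 1038 CPM in vemurafenib plus THZ1 and 846, 786 and 825 CPM in THZ1, against 337, 306 and 313 CPM in vemurafenib and 421, 393 and 391 CPM in DMSO. Its log2 change was 0.37 with THZ1 and -0.33 without, so both directions passed the test and they are opposite. HEXIM1 (0.36), which holds the elongation kinase inactive, and the elongation factor ELL2 (0.72) were higher.

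Genes of the largest changes lay partly outside these lists. PRUNE2 had 25.7, 20.6 and 25.6 CPM in vemurafenib plus THZ1 and 0.847, 1.17 and 1.53 CPM in THZ1 (log2 change 4.23 ± 0.17, adjusted p = 8.61e-13), the largest rise among genes with at least 5 CPM in the higher group. MGP, a matrix protein that inhibits calcification, had 12.5, 8.09 and 12 CPM in vemurafenib plus THZ1 and 0.339, 1.17 and 0.644 CPM in THZ1, against 447, 484 and 465 CPM in vemurafenib and 6.74, 9.81 and 10.1 CPM in DMSO. In both, each library with vemurafenib lay above each without. The placental alkaline phosphatase gene ALPP had 255, 273 and 249 CPM in vemurafenib plus THZ1 and 22.7, 23 and 26.3 CPM in THZ1, a log2 change of 3.41 ± 0.11, and its close paralog ALPG had 3.57. The reads of these 2 genes can be shared, so the split between them is uncertain. ALPP stayed low without THZ1, at 5.5, 7.85 and 7.71 CPM in vemurafenib and 7.24, 6.6 and 3.25 CPM in DMSO. LRRC7 (3.80), the protease inhibitor A2M (3.0), PTPRZ1 (2.97), MOXD1 (2.88), PLCH2 (2.86), STON1 (2.86) and SYBU (2.84) were the other genes of large rise. Those of large fall, after CEMIP, were the interleukin 33 receptor gene IL1RL1 (-4.70), the endothelial proteoglycan gene ESM1 (-4.59), SIRPB1 (-4.51), CORO2B (-3.78), CYB5R2 (-3.70), RTL1 (-3.35), SH2D1B (-3.35), LAD1 (-3.16), SERPIND1 (-2.90) and NTM (-2.81).

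Set against the same drug step without THZ1, the effect of vemurafenib was more often of the same direction than of the opposite one, and smaller at the median for the genes that vemurafenib alone moved most. Of the 2253 genes at least 2-fold higher in vemurafenib than in DMSO, 1008 (44.7%) were also higher in vemurafenib plus THZ1 than in THZ1, and 63 (2.8%) were lower. Their median log2 change was 1.64 without THZ1 and 0.47 with it. Of the 2036 genes at least 2-fold lower with vemurafenib alone, 1178 (57.9%) were also lower with THZ1 present and 100 (4.91%) were higher, with medians of -1.67 and -0.47. Genes chosen for a large change in 1 comparison tend to show less in the other. Read from the other side, of the 699 genes at least 2-fold higher in vemurafenib plus THZ1, 439 (62.8%) were higher with vemurafenib alone, with medians of 1.45 and 1.35. Of the 543 at least 2-fold lower, 445 (82.0%) were lower with vemurafenib alone, with medians of -1.41 and -2.42. The 2 comparisons share no library. They share the spread estimated over the 15 A375 libraries.

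**Figure D3:**
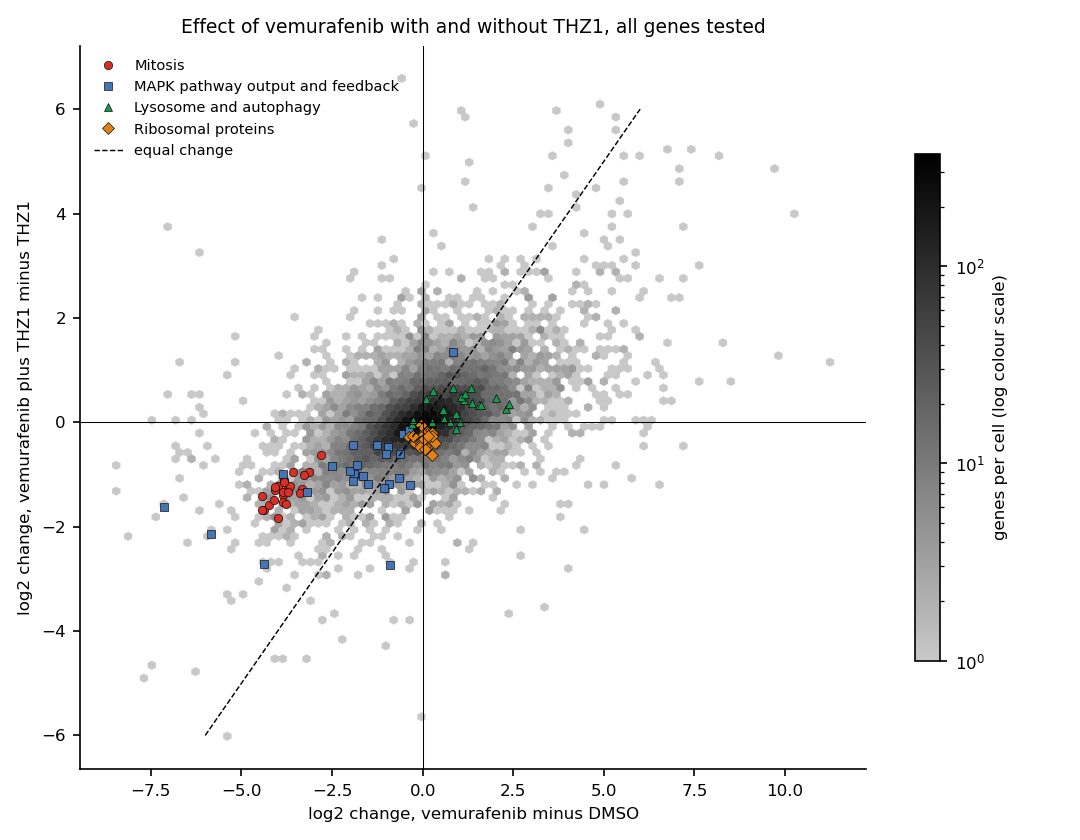
Log2 change of each tested gene for vemurafenib against DMSO (horizontal axis) and for vemurafenib plus THZ1 against THZ1 (vertical axis), with shading for the number of genes and points for mitosis, MAPK output, lysosome and ribosomal protein genes. The dashed line marks equal change. Mitosis genes lay above that line, with medians of -3.84 and -1.31.

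The difference between both vemurafenib effects was tested for each gene. It was called for 4305 genes with a positive sign (26.7%), where vemurafenib lowered less or raised more in the presence of THZ1, and for 3836 with a negative sign (23.8%). All 24 mitosis genes and all 23 DNA replication genes had a positive difference, with medians of 2.49 and 1.68. In vemurafenib alone MKI67 had 17.7, 30 and 23 CPM against 487, 499 and 488 CPM in DMSO, and PLK1 had 6.92, 13.7 and 11.7 CPM against 205, 219 and 207 CPM. MKI67 with both drugs thus stood above its level with vemurafenib alone, and THZ1 alone stood well below DMSO. Among MAPK output genes the difference was positive in 16 of 25 and negative in 2, and in 19 and 2 without replicate 1 of vemurafenib. It was positive for 16 of 17 glycolysis genes, 20 of 22 cholesterol genes and 14 of 18 stress response genes, and negative for 19 of 23 lysosomal and 17 of 21 antigen presentation genes.

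Among the genes with the largest positive differences was the 14-3-3 sigma gene SFN, with 18.3, 18.7 and 20.3 CPM in vemurafenib plus THZ1 and 6.44, 6 and 5.95 CPM in THZ1, against 0, 0 and 0.0907 CPM in vemurafenib and 2.86, 1.18 and 2.02 CPM in DMSO. SFN thus moved in opposite directions, higher with vemurafenib in the presence of THZ1 and down to 1 count in 3 libraries with vemurafenib alone, and both changes passed the test. ANGPTL7, an angiopoietin-like secreted protein gene, had the largest negative difference, with 249, 252 and 222 CPM in vemurafenib against 0, 0 and 0.175 CPM in DMSO, where the 3 DMSO libraries held 2 counts. It had 0.487, 0.276 and 0.0783 CPM in vemurafenib plus THZ1 and 0.169, 0.333 and 0 CPM in THZ1, 10 and 3 counts in all. PCSK2, a prohormone convertase gene, had 5.44, 3.03 and 3.99 CPM in vemurafenib plus THZ1 and 0.678, 0 and 0.161 CPM in THZ1, against 272, 263 and 272 CPM in vemurafenib and 0.168, 0.169 and 0.263 CPM in DMSO. Both genes were thus high with vemurafenib alone, and ANGPTL7 was near the floor in the other 3 groups. A count of 3 over a group amounts to 0.0834 CPM in vemurafenib plus THZ1, 0.123 CPM in THZ1 and 0.129 CPM in DMSO, so fitted folds against such groups depend on the fit's prior count and are not given.

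**Figure D4:**
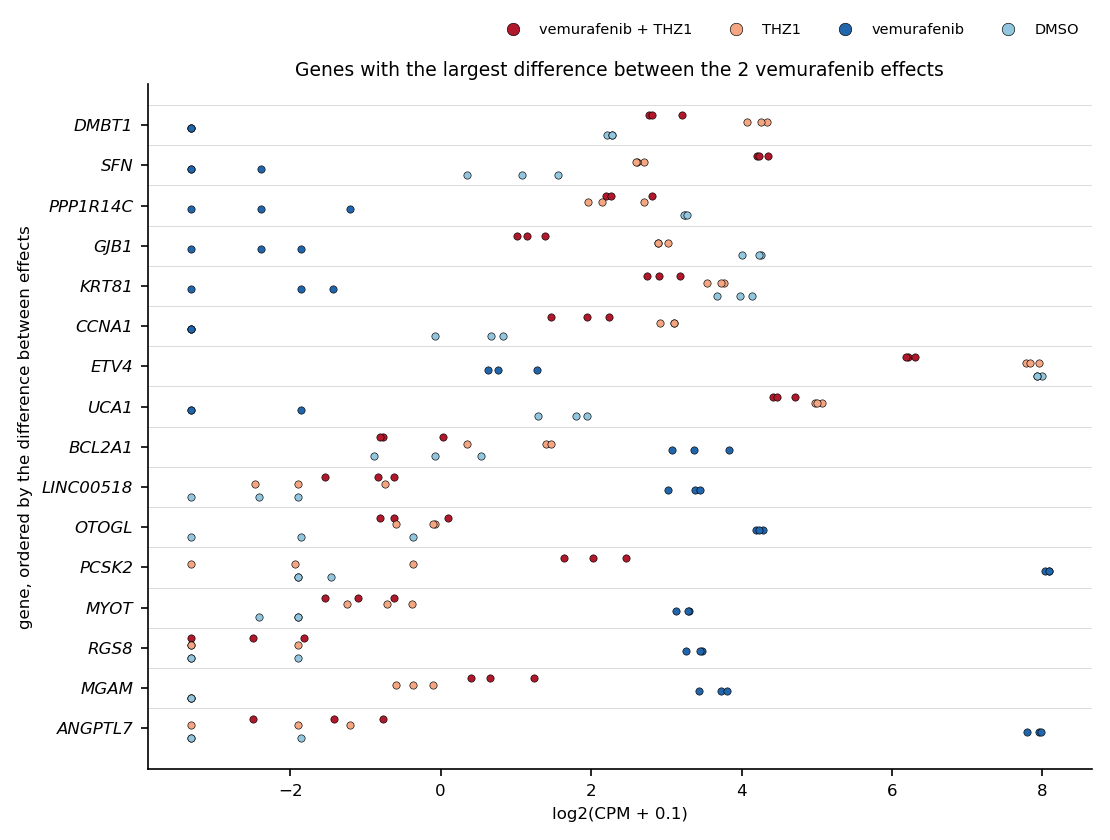
Levels of the 16 genes with the largest difference between the vemurafenib effects, as log2(CPM + 0.1) for each of the 3 libraries of vemurafenib plus THZ1, THZ1, vemurafenib and DMSO. ETV4 and SFN were lowest, and ANGPTL7 and PCSK2 highest, with vemurafenib alone.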

How the data were processed

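RNA from A375 cells was isolated with an RNeasy micro kit and sequenced after library preparation with a NEBNext Ultra RNA kit, per the labels' protocols. The authors deposited expected counts per gene for 90 libraries, which are estimated counts that need not be whole. Per the submitters' processing notes they used RSEM 1.2.12 and Bowtie2 2.2.1 with hg19, while no source used here names the gene annotation. RSEM shares a read that fits several genes among them, and 9.9 to 13.75% of an A375 library's values are not whole, so values of near-identical genes are uncertain. No spike-in is recorded, so levels are relative to all RNA. Of 53893 gene IDs, 47357 carried a symbol, and the others held 1.1% of the A375 counts.

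The expected counts were rounded, and all 15 A375 libraries, 5 groups of 3 with the 7-day vemurafenib group included, were fitted together in edgeR 4.0.16 (R 4.3.3) with TMM scaling, filterByExpr and the quasi-likelihood test, which left 16106 genes and 10 residual degrees of freedom. Calls were made at an adjusted p under 0.05 (Benjamini-Hochberg, over all tested genes). The contrasts were vemurafenib plus THZ1 minus THZ1, vemurafenib minus DMSO, and the first minus the second. CPM are counts scaled to TMM-scaled library totals. SEs of log2 changes come from the fit. The scripts were tested on simulated counts. Alternatives were DESeq2 1.42.0, other scalings, no filter, unrounded counts, fewer groups, a replicate block, each library left out, and, added after seeing the data, a term for depth and the libraries above 9 M counts alone.

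Between vemurafenib plus THZ1 and THZ1 only replicate numbers 2 and 3 are shared, with correlations of deviations of -0.0175 and -0.00297, so libraries were not paired. The members, the 37 gene lists (725 genes, 717 found, 661 tested) and the comparisons were chosen with earlier results of these data known. Named genes are the 12 largest rises and 12 largest falls among called genes with 5 CPM or more in the higher group and no overlap, up to 4 called members per list with the largest change, the 8 largest positive and 8 largest negative differences between the vemurafenib effects, and 9 genes named whatever their values (BRAF, CDK7, CDK12, CDK13, MITF, SOX10, DUSP6, CDKN1A and MDM2); other list members are named to account for a list. Promoter windows come from RefSeq (GRCh38.p14), searched on both strands. A floor of 3 counts covers counting error only.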

Additional observations from a re-analysis of the deposited data

Results flagged for a closer look

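The vemurafenib effect differed with and without THZ1, by the test of the difference in edgeR, for 4305 genes with a positive and 3836 with a negative sign. The 16 genes with the largest differences follow, each because that test was passed. Ranking on the difference favours genes with an extreme level in a single group, so patterns that these genes share follow in part from the choice. The fitted log2 differences of genes with a group at or near 0 counts depend on the prior count of the fit and are no bounds.

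Positive differences were led by DMBT1 (7.14), a mucosal glycoprotein gene with 7.59 ± 1.37 CPM in vemurafenib plus THZ1 and 18.7 ± 1.71 CPM in THZ1, against 0 counts in vemurafenib and 4.67 ± 0.109 CPM in DMSO (SD, n = 3 each). SFN had 6.79, PPP1R14C 6.19, the gap junction gene GJB1 5.69, the hair keratin gene KRT81 5.61, the germline cyclin gene CCNA1 5.54, ETV4 5.52 and the non-coding UCA1 5.35. UCA1 had 23.1 ± 2.57 CPM in vemurafenib plus THZ1 and 32.3 ± 1.08 CPM in THZ1, against 1 count in vemurafenib and 3.17 ± 0.73 CPM in DMSO. In each of these 8 genes vemurafenib alone had the lowest mean of the 4 groups, and all but ETV4 held at most 4 counts there.

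Negative differences were led by ANGPTL7 (-10.15) and MGAM (-8.55). RGS8 had -6.70, the muscle gene MYOT -6.27, PCSK2 -6.19, OTOGL -6.18, the non-coding LINC00518 -5.66 and BCL2A1 -5.61. In each of these 8 genes vemurafenib alone had the highest mean of the 4 groups, for example 269 ± 5.14 CPM for PCSK2, against 4.16 ± 1.21 CPM in vemurafenib plus THZ1, 0.28 ± 0.354 CPM in THZ1 and 0.2 ± 0.0544 CPM in DMSO. BCL2A1 moved in opposite directions, lower in vemurafenib plus THZ1 (0.625 ± 0.255 CPM) than in THZ1 (2.12 ± 0.829 CPM) and higher in vemurafenib (10.9 ± 2.99 CPM) than in DMSO (0.877 ± 0.455 CPM). ANGPTL7, LINC00518 and RGS8 lost the call of the difference in at least 1 alternative setting.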

How the results depend on the processing

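With each library left out in turn, 2913 to 3150 genes were called higher and 2611 to 3009 lower in vemurafenib plus THZ1 against THZ1, 5065 to 5381 and 4923 to 5238 in vemurafenib against DMSO, and 3989 to 4261 and 3482 to 3801 for the difference. With a replicate block the counts were 3020 and 2894, 5365 and 5164, and 4145 and 3572. The block rests on shared numbers only, since the libraries were not paired. DESeq2 called 2772 higher and 2804 lower in vemurafenib plus THZ1 against THZ1. Over the settings that leave out no single library the counts of that comparison stayed within 1.5 times those reported, from 2286 to 4018 higher and 2534 to 3748 lower, the smallest with the libraries above 9 M counts, where the lone THZ1 library is assumed to vary like the other groups, and the highest rise with unscaled library totals. Of 173 called named genes of that comparison, 155 kept their call in every setting and 18 lost it in at least 1, and none changed sign. Of the genes not called, BRAF turned to -0.00 with the 12 libraries at 48 h, -0.04 with the depth term and -0.01 with the deep libraries, and CDK7 to 0.02 with the deep libraries. With a library left out CDK7 ran from -0.11 to 0.00, the highest without THZ1 replicate 2. For the difference, fitting only the groups compared is the fit of the 12 libraries at 48 h. The epithelial median of -0.43 was 0.03 without THZ1 replicate 4. Genes 1.5-fold or 4-fold higher with vemurafenib alone were also higher with THZ1 in 42.7% and 48.7%, and those lower also lower in 52.1% and 68.3%. Differences in genes of few counts could not be resolved at this depth.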

Other observations

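Of the tested genes, 8563 (53.2%) had no overlap between the 3 libraries of vemurafenib plus THZ1 and the 3 of THZ1, and 7748 had an unadjusted p under 0.05 in edgeR. Of the 2253 genes at least 2-fold higher with vemurafenib alone, the effect was significantly smaller with THZ1 for 1517 (67.3%) and larger for 3. Of the 2036 lower ones it was smaller for 1709 (83.9%) and larger for 15. Here and in the reverse choice below, genes were chosen on a change that also enters the tested difference. Part of such a lean therefore follows from the choice. Chosen the other way, of the 699 genes at least 2-fold higher in vemurafenib plus THZ1, the effect of vemurafenib alone was smaller for 149 and larger for 168. Of the 543 at least 2-fold lower it was smaller for 99 and larger for 284 (52.3%).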
